A study of Bos taurus with 4 samples.

Results

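Intergenic noncoding candidates that were listed in each of 4 skeletal muscles of Hereford cattle are described here. A transcript entered the set when the deposited tables gave it the Cufflinks class code u, for a transcript that touches no annotated gene, and a value above 0 in every library. The rule kept 3950 of the 34877 intergenic transcripts (11.3%) and 6.19% of all 63845 transcripts of the series. Being listed is itself a measured value, so the presence of these transcripts in every muscle, and the higher read numbers that go with it, describe the rule and are no finding. The muscles were longissimus thoracis (a long muscle of the back), a scapula muscle (on the shoulder blade), gluteus (a rump muscle) and intercostal muscle (which joins neighbouring ribs). The first is spelled Longissimus thoraci in the labels. The cattle were females killed at 18 months after fattening on corn silage in 1 feedlot, so breed, sex, age and feed were shared by all 4 groups. Total RNA of 3 animals was mixed in equal amounts into 1 pool per muscle and sequenced on the Illumina platform. Each muscle thus has 1 library and no replicate, no difference between muscles can be set against a spread between animals, and no p-value is given.

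Long intergenic noncoding RNAs are transcripts without a recognised protein-coding frame that lie between annotated genes. Some act on the chromatin or transcription of nearby genes, some bind microRNAs or proteins, and for most no role is known. In skeletal muscle, several are known to take part in the commitment and differentiation of myoblasts. Assembled transcripts of this class can also be unannotated ends of neighbouring genes, since the class code depends on the annotation used. The deposited identifiers hold a transcript number, a locus number and, for intergenic transcripts, no gene name. They give no coordinates or sequences, so none of these transcripts was placed on a chromosome and no sequence is shown. All 3950 carry 1 in the part of the identifier that holds the exon number.

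The authors deposited each level as FPKM, the fragments of a transcript per kilobase of its length, scaled to a fixed library total. The totals recovered from the values were 2132255, 1511933, 1107493 and 1318644 reads for longissimus thoracis, the scapula muscle, gluteus and intercostal muscle, an order kept below wherever 4 values stand together. Sums over transcripts are in reads-per-million of that total (RPM). A range in parentheses after a level is its exact Poisson interval at 95%, which covers counting error only, because PCR reads without molecular identifiers are not independent molecules. In a transcript of 1000 nucleotides 1 read is worth 0.469, 0.661, 0.903 and 0.758 FPKM. The intergenic transcripts listed in every muscle had a median of 38, 29, 20 and 25 reads, and fewer than 10 reads in 532, 699, 1138 and 865 cases, so that gluteus is the least precisely measured muscle and longissimus thoracis the most. In bulk tissue, fewer cells of a type and less RNA per cell cannot be told apart. Messenger RNA was not analysed here, and the labelled tissue was checked through noncoding transcripts that carry the names of muscle genes. Such transcripts were listed for 6 of 12 skeletal muscle genes (ACTN2, MYF6, MYH1, MYH7, NEB and TTN) and summed to 30387, 43609.7, 51546 and 58898 RPM.

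Within the intergenic class these transcripts were a minority of entries and a majority of reads. They made up 23.0, 20.1, 34.5 and 28.1% of the intergenic transcripts listed for each muscle and held 63.5, 58.2, 72.5 and 67.2% of the intergenic reads. Of all reads in the tables, longissimus thoracis gave them 17.8%, with a Wilson interval of 17.7 to 17.8. The scapula muscle gave 16.9% (16.8 to 16.9), gluteus 17.7% (17.6 to 17.7) and intercostal muscle 17.9% (17.8 to 17.9). The 4 shares thus lay within about 1 percentage point of each other. At the edge of the rule stood 556 transcripts (14.1%) that entered through 1 read in their lowest library. Where that 1 read lay in longissimus thoracis, the median level was 0.882 FPKM there, while the median of the other 3 muscles stood at 20.5 FPKM. Just outside the rule were 4051 intergenic transcripts listed in 3 muscles. Of these, 1711 lacked longissimus thoracis, 1252 gluteus, 761 intercostal muscle and 327 the scapula muscle. With 20 or more reads in all 3 remaining libraries, 97 of 1711 were still not listed for longissimus thoracis, the deepest library. The counts were 4 of 327 for the scapula muscle, 40 of 1252 for gluteus and 13 of 761 for intercostal muscle. The bar of 20 reads falls on different libraries each time. No such counts were made for the other classes, so whether they are particular to intergenic transcripts cannot be told.

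On this relative scale the typical level was nearly the same in every muscle. The median in longissimus thoracis was 27.0 FPKM, that in the scapula muscle 27.7, that in gluteus 26.2 and that in intercostal muscle 27.8, and the middle 50% of transcripts spanned 12.8 to 50.1 FPKM in longissimus thoracis. The 1818 intronic transcripts listed in every muscle had medians of 29.96, 27.4, 19.8 and 24.1 FPKM, so that gluteus lay lowest. The 1420 antisense transcripts listed in every muscle, whose class code marks exon overlap with a gene read from the other strand, had medians of 74.3, 73.7, 82.8 and 84.6 FPKM. The upper end showed the same separation, since 5% of the intergenic transcripts exceeded 107 FPKM in longissimus thoracis, against 651 FPKM for the antisense ones. No intergenic transcript listed in every muscle exceeded 2808 FPKM in any library. The sources used here do not give the strand setting, and antisense values may include reads of the gene itself.

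**Figure D1:**
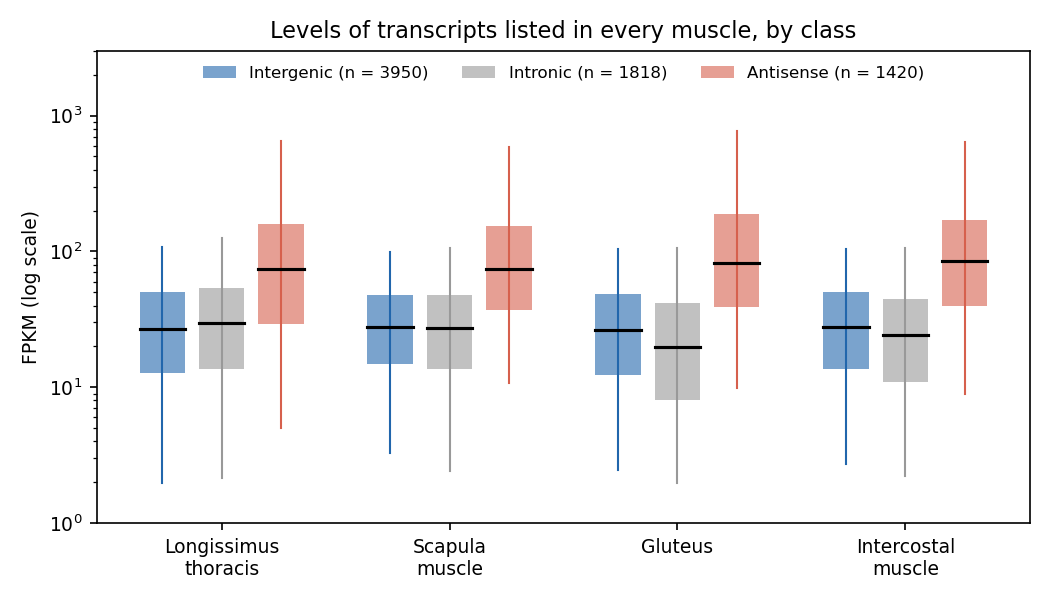
Levels in FPKM (log scale) of intergenic, intronic and antisense transcripts listed in every muscle, by muscle. Boxes span the middle 50% of transcripts, black lines are medians and thin lines run from the 5th to the 95th percentile. The intergenic medians lie between 26.2 and 27.8 FPKM and the antisense medians between 73.7 and 84.6 FPKM.

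A few transcripts carried much of the class. The 10 with most reads in a library held 16.1, 12.3, 17.7 and 13.7% of the reads of the set there, and the 100 with most reads held 33.0, 29.1, 35.4 and 31.2%. Highest on average was TCONS_00047418, of 4444 nucleotides, at 1554 FPKM (1529 to 1579) in longissimus thoracis, 1812 (1779.8 to 1844) in scapula muscle, 2808 (2761 to 2855) in gluteus and, in intercostal muscle, 2108 (2071 to 2146). Gluteus stood above the others and longissimus thoracis lowest, with no overlap of intervals and a ratio of 1.81 between them. TCONS_00111984, of 2008 nucleotides, stood at 1567 FPKM (1529 to 1605) in longissimus thoracis, 1115 (1078 to 1154) in scapula muscle, 1621 (1568 to 1674) in gluteus and, in intercostal muscle, 787 (753 to 821). Here the intervals of longissimus thoracis and gluteus overlapped, and intercostal muscle was lowest. The longest of these highest 8, TCONS_00017163, took up 7625 nucleotides and stood at 1515 FPKM (1496 to 1534) in longissimus thoracis, 605 (591 to 619) in scapula muscle, 1347 (1323 to 1372) in gluteus and, in intercostal muscle, 901 (883 to 919.8). It alone held 6.58% of the longissimus thoracis reads of the set and 2.73% of those in the scapula muscle.

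The short transcript TCONS_00247685, of 243 nucleotides, stood at 1077 FPKM (989 to 1170.1) in longissimus thoracis, 419 (356 to 491) in scapula muscle, 910.4 (799.9 to 1032) in gluteus and, in intercostal muscle, 777 (684 to 879.8). Its order, with longissimus thoracis highest, gluteus next and the scapula muscle lowest, was that of TCONS_00017163. TCONS_00098694 was lowest in longissimus thoracis instead, with 264 FPKM (233 to 298) in longissimus thoracis, 763 (699.6 to 831) in scapula muscle, 924 (843 to 1012) in gluteus and, in intercostal muscle, 1029 (950.2 to 1113). Longissimus thoracis lay 3.90-fold below intercostal muscle, and the other 3 muscles spanned 763 to 1029 FPKM. TCONS_00098307 was lowest in gluteus, at 251 FPKM, and highest in intercostal muscle, at 565. TCONS_00166732 ran from 235 FPKM in gluteus to 717 in the scapula muscle, and its recovered length of 119 nucleotides is a lower bound. TCONS_00075181 varied least of the 8, from 337 FPKM in gluteus to 481 in longissimus thoracis, a ratio of 1.43. With TCONS_00247685 it was the shortest of those with 100 or more reads in every library, at 458 nucleotides.

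**Figure D2:**
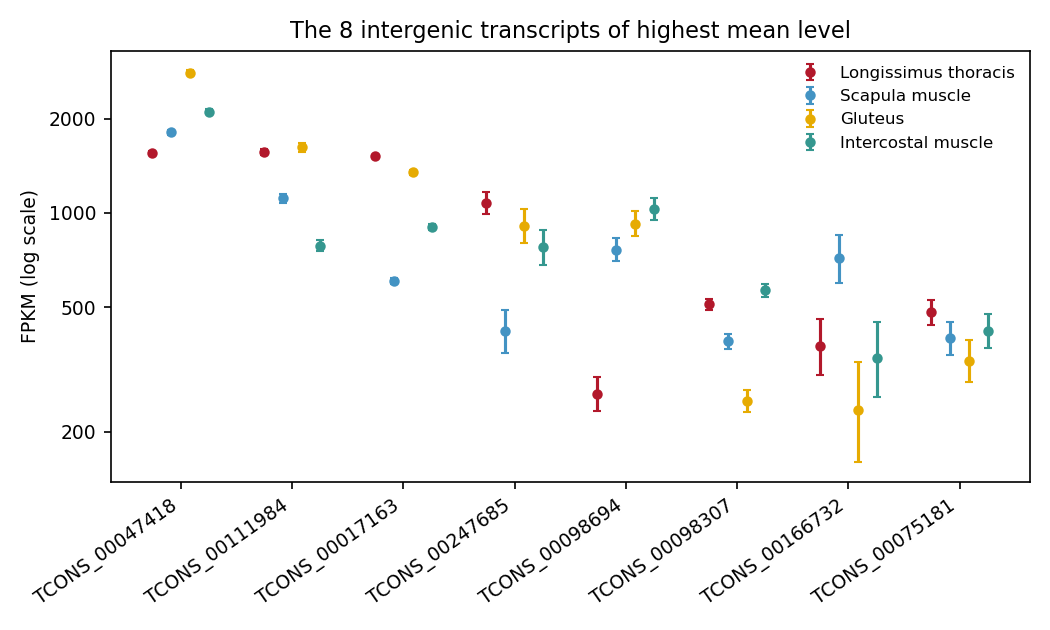
The 8 intergenic transcripts of highest mean level among those listed in every muscle, in FPKM (log scale), with 1 point per muscle and 95% Poisson intervals of the read number. Longissimus thoracis is lowest for TCONS_00098694, at 264 FPKM, and highest for TCONS_00017163, at 1515 FPKM.

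Transcript length was recovered together with the reads, as the smallest length at which the 4 values of a transcript are whole reads. The median was 708 nucleotides, the middle 50% spanned 511 to 1061, and 1118 transcripts (28.3%) were longer than 1000. Intronic transcripts listed in every muscle had a median of 543 nucleotides and antisense ones 1203. The recovered length is the true one or a whole fraction of it. Only 22 of the 3950 intergenic transcripts came out under 200 nucleotides, a usual lower limit for long noncoding RNA. Lengths of transcripts listed in fewer muscles rest on fewer values and were not compared. The longest, TCONS_00104599, had 7707 nucleotides and stood at 199 FPKM (192 to 206) in longissimus thoracis, 65.9 (61.3 to 70.7) in scapula muscle, 174 (165 to 183) in gluteus and, in intercostal muscle, 123 (116 to 129.5). Like TCONS_00017163, the next longest of those with 100 or more reads in every library, it was highest in longissimus thoracis, followed by gluteus, intercostal and scapula muscle. Split by length into 4 groups of nearly equal size, the longest had the highest levels. In the shortest group, up to 511 nucleotides, the medians were 25.4, 21.9, 20.4 and 23.3 FPKM, and in the longest group, from 1063 nucleotides, 39.99, 43.5, 42.9 and 44.6 FPKM. Longer transcripts collect more reads at the same level and so pass the rule more easily, which bears on every length given here.

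Single transcripts differed between muscles far more than the medians did. The ratio of the highest to the lowest muscle had a median of 4.94, was under 2 for 424 transcripts (10.7%) and 10 or more for 1099 (27.8%). Over all 7188 transcripts listed in every muscle the median was 4.80 and the shares were 12.7% and 27.4%, so the intergenic ones lay near the background. Among intronic transcripts listed in every muscle the median ratio was 6.53, and among antisense ones 2.95. The Poisson intervals of the highest and the lowest muscle did not overlap for 3467 of 3950 intergenic transcripts (87.8%), where the share was 89.2% over all transcripts listed in every muscle. The choice of the highest and lowest of 4 values favours such gaps. The ratio was smaller in transcripts with more reads. For the 799 transcripts with a mean under 10 RPM its median was 9.59, for the 2379 between 10 and 50 RPM it was 5.23, and for the 772 at 50 RPM or more it was 2.57. In that deepest tier 212 transcripts (27.5%) stayed within 2-fold across all 4 muscles and 34 (4.40%) spanned 10-fold or more, against 31.1% and 6.35% of all transcripts of that depth listed in every muscle.

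**Figure D3:**
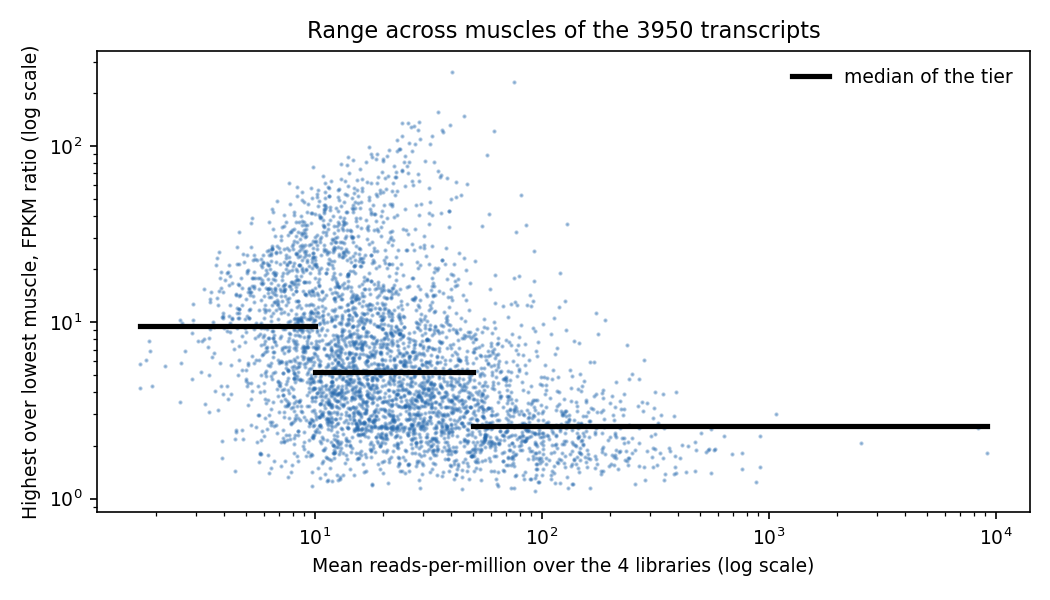
Ratio of the highest to the lowest muscle (FPKM, log scale) against the mean reads-per-million over the 4 libraries (log scale), 1 point per intergenic transcript listed in every muscle. Black lines are the medians of the 3 depth tiers, which are 9.59, 5.23 and 2.57 from the shallowest to the deepest.

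The most even transcripts were sought among those with at least 100 reads in every library. TCONS_00247482, of 1921 nucleotides, stood at 47.1 FPKM (40.7 to 54.3) in longissimus thoracis, 47.9 (40.2 to 56.5) in scapula muscle, 48.4 (39.5 to 58.7) in gluteus and, in intercostal muscle, 51.7 (43.2 to 61.4). All its intervals overlapped, and its highest muscle lay 1.10 times above its lowest. TCONS_00156484 stood at 72.8, 74.2, 67.1 and 76.6 FPKM and TCONS_00080204 at 59.3, 52.4, 59.99 and 53.0 FPKM, with ratios of 1.14 and 1.14. The next were TCONS_00206473, at 57.7, 66.0, 69.4 and 63.6 FPKM, and TCONS_00165033, at 98.9, 81.5, 88.0 and 94.9 FPKM. These 5 lay between 47.1 and 98.9 FPKM in every library. At the other end, chosen after the values were seen, stood the widest ratios among transcripts with a mean of 50 RPM or more. TCONS_00020969, of 383 nucleotides, stood at 2.45 FPKM (0.297 to 8.85) in longissimus thoracis, 119 (92.7 to 151) in scapula muscle, 566 (496 to 642) in gluteus and, in intercostal muscle, 103 (76.9 to 135), the first from 2 reads and the third from 240. TCONS_00181018 had 0.746, 49.9, 54.5 and 91.0 FPKM and TCONS_00025166 had 1.61, 85.5, 54.6 and 81.9 FPKM. In TCONS_00165873 and TCONS_00073534 the values were 1.31, 10.5, 53.7 and 43.4 FPKM and 5.30, 24.8, 43.1 and 192 FPKM. In each of these, as in TCONS_00256117 described next, longissimus thoracis was the lowest muscle.

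Each muscle was then set against the median of the other 3 on the scale log2(FPKM + 1), and a transcript was called higher or lower at 2-fold or more. This is a rule of size, not a test, and on this scale the difference of low transcripts is understated. For longissimus thoracis, 900 transcripts (22.8%) were higher and 1000 (25.3%) lower. The background was 37.2% and 21.3% over all transcripts of the series, and 23.7% and 24.6% over all those listed in every muscle. The counts lie near the latter background, and the former holds transcripts that are listed in fewer muscles, which enter it as 0 elsewhere. The median log2 ratio was 0.01, against 0.07 over all transcripts listed in every muscle. Of the intronic transcripts listed in every muscle, 32.2% were higher there. In the tier of 50 RPM or more, 93 (12.0%) were higher and 168 (21.8%) lower, against 12.1% and 22.4% of all transcripts of that depth listed in every muscle. The highest ratio belonged to TCONS_00157151, at 92.7 FPKM (78.0 to 109) in longissimus thoracis, 0.941 (0.0238 to 5.24) in scapula muscle, 1.28 (0.0325 to 7.16) in gluteus and, in intercostal muscle, 4.31 (1.18 to 11.0). TCONS_00003043 followed, at 72.6 FPKM (57.8 to 90.0) in longissimus thoracis, 1.23 (0.0312 to 6.88) in scapula muscle, 10.1 (3.71 to 22.0) in gluteus and, in intercostal muscle, 1.41 (0.0358 to 7.88). In both, all other muscles rested on 1 to 6 reads. The lowest belonged to TCONS_00256117, at 1.21 FPKM (0.147 to 4.39) in longissimus thoracis, 93.4 (76.7 to 113) in scapula muscle, 94.7 (75.2 to 118) in gluteus and, in intercostal muscle, 108 (88.8 to 130.2). Next to it was TCONS_00042448, at 0.456 FPKM (0.0116 to 2.54) in longissimus thoracis, 34.7 (26.1 to 45.3) in scapula muscle, 58.8 (45.6 to 74.7) in gluteus and, in intercostal muscle, 59.8 (47.5 to 74.3). Longissimus thoracis had 2 reads and 1 read of these, and the other 3 libraries between 54 and 110.

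For the scapula muscle, 812 transcripts (20.6%) were higher and 794 (20.1%) lower. The background was 43.2% and 11.3% over all transcripts of the series, and 20.2% and 19.3% over all those listed in every muscle, close to the latter and not to the former. The median log2 ratio was 0.02, against -0.01 over all transcripts listed in every muscle. In the deepest tier, 62 (8.03%) were higher and 88 (11.4%) lower, against 7.30% and 11.4% of all transcripts of that depth listed in every muscle. TCONS_00048620 had the highest ratio, at 25.8 FPKM (18.7 to 34.7) in longissimus thoracis, 97.3 (80.3 to 117) in scapula muscle, 3.46 (0.714 to 10.1) in gluteus and, in intercostal muscle, 2.91 (0.600 to 8.50). TCONS_00039067 followed with 21.9, 57.8, 1.36 and 2.28 FPKM. In both, longissimus thoracis stood between the scapula muscle and the other 2. The lowest ratios were those of TCONS_00206211, at 50.4 FPKM (39.3 to 63.7) in longissimus thoracis, 1.02 (0.0257 to 5.66) in scapula muscle, 61.0 (44.3 to 81.9) in gluteus and, in intercostal muscle, 64.1 (48.3 to 83.4), and TCONS_00111049, at 63.9, 1.92, 60.2 and 79.1 FPKM. In each of these the scapula value came from 1 read, and the intervals of the other 3 muscles overlapped.

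For gluteus, 710 transcripts (18.0%) were higher and 1006 (25.5%) lower. The background was 18.6% and 23.7% over all transcripts of the series, and 17.4% and 25.2% over all those listed in every muscle. The median log2 ratio was -0.08, equal to that over all transcripts listed in every muscle to 2 decimals. Intronic transcripts listed in every muscle were lower in gluteus in 34.2% of cases and antisense ones in 12.7%, so the intergenic share lay between those of the other classes. In the deepest tier, 71 (9.20%) were higher and 103 (13.3%) lower, against 10.4% and 11.2% of all transcripts of that depth listed in every muscle. Among transcripts with at least 10 reads in every library, 253 were higher and 245 lower, under a filter whose lowest admitted level is highest in gluteus. The share over all transcripts listed in every muscle was not counted under this filter. Whether this turn of the balance is particular to the intergenic set therefore cannot be told. TCONS_00258853 stood at 1.16 FPKM (0.0294 to 6.47) in longissimus thoracis, 1.64 (0.0414 to 9.12) in scapula muscle, 71.5 (48.9 to 101) in gluteus and, in intercostal muscle, 1.88 (0.0475 to 10.5), with 1 read in each of the other libraries. TCONS_00193891 had 29.2, 0.875, 74.1 and 2.01 FPKM, and longissimus thoracis was its second muscle. Lowest in gluteus were TCONS_00072492, at 41.7, 75.2, 1.71 and 71.8 FPKM, and TCONS_00036851, at 160.3 FPKM (134 to 190.0) in longissimus thoracis, 45.9 (30.3 to 66.8) in scapula muscle, 2.32 (0.0588 to 12.9) in gluteus and, in intercostal muscle, 83.8 (60.7 to 113). Gluteus had 1 read of each. It also had the smallest library, and 216 transcripts of the set rested there on 1 read, against 125, 118 and 153 in longissimus thoracis, the scapula muscle and intercostal muscle.

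For intercostal muscle, 767 transcripts (19.4%) were higher and 817 (20.7%) lower. The background was 26.4% and 17.9% over all transcripts of the series, and 18.1% and 20.8% over all those listed in every muscle. The median log2 ratio was 0.05, against 0.03 over all transcripts listed in every muscle. In the deepest tier, 79 (10.2%) were higher and 60 (7.77%) lower, against 9.26% and 7.62% of all transcripts of that depth listed in every muscle. With at least 10 reads in every library the counts were 254 and 207, so here too the higher calls became the more frequent. The background under that filter was again not counted. TCONS_00110136 stood at 6.64 FPKM (2.44 to 14.4) in longissimus thoracis, 3.12 (0.378 to 11.3) in scapula muscle, 2.13 (0.0539 to 11.9) in gluteus and, in intercostal muscle, 93.0 (69.5 to 122), and TCONS_00089528 at 1.52, 1.07, 10.2 and 58.8 FPKM. Lowest were TCONS_00056124, at 88.2 FPKM (73.0 to 106) in longissimus thoracis, 40.4 (28.6 to 55.5) in scapula muscle, 102 (79.2 to 128) in gluteus and, in intercostal muscle, 2.44 (0.295 to 8.81), and TCONS_00123285, at 12.3, 39.8, 43.8 and 0.736 FPKM. The intercostal values of the latter pair rested on 2 reads and 1 read.

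The levels of noncoding transcripts at marker genes of other cell types also differed between the 4 libraries. Transcripts at 6 of 8 fibroblast and matrix genes summed to 2185, 8772, 1554 and 4000.3 RPM, highest in the scapula muscle. Those at 4 of 6 smooth muscle genes summed to 777, 755, 577 and 2431 RPM, highest in intercostal muscle, with TAGLN and CNN1 not listed. Those at 3 of 9 adipocyte genes (EBF1, GPAM and PLIN4, with 127 transcripts) summed to 909, 1245, 448 and 790.2 RPM. ADIPOQ, CIDEC, FABP4, LEP, LPL and PLIN1 were not listed. Endothelial genes (5 of 8, with KDR, PECAM1 and VWF not listed) gave 276, 445, 337 and 325 RPM. Leukocyte genes (3 of 7, with CD3E, CD68, LYZ and MRC1 not listed) gave 20.2, 25.8, 22.6 and 41.7 RPM. None of the 4 erythroid genes was listed. The part of these cell types in the differences between muscles was not tested.

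Which muscles stand together was read from the widest gap among a transcript's 4 values. A gap of 2-fold or more was found for 2532 of 3950 intergenic transcripts (64.1%), against 63.0% of all transcripts listed in every muscle. In 1350 of these 1 muscle lay below the other 3, in 603 1 muscle lay above, and in 579 the muscles parted 2 against 2. These are 34.2%, 15.3% and 14.7% of the set, near the 32.6%, 15.1% and 15.2% of all transcripts listed in every muscle. The muscle below was longissimus thoracis in 451 (11.4%, background 11.5%), gluteus in 381 (9.65%, background 9.38%), intercostal muscle in 282 (7.14%, background 6.25%) and the scapula muscle in 236 (5.97%, background 5.47%). With depth this balance shifted. Among the 772 transcripts of 50 RPM or more, 252 (32.6%, background 32.3%) had such a gap, and in 94 of them (37.3%) longissimus thoracis was the muscle below. Gluteus was below in 29, the scapula muscle in 20 and intercostal muscle in 14. As shares of the tier these are 12.2%, 3.76%, 2.59% and 1.81%, where the backgrounds over all transcripts of that depth listed in every muscle were 13.8%, 3.07%, 2.17% and 0.899%. The low longissimus thoracis values were thus shared with the other classes. Longissimus thoracis also stood above the other 3 in 25 transcripts of the tier (3.24%, background 2.43%). The median ratio of highest to lowest muscle over all 3950 transcripts was 3.17 without the longissimus thoracis library, 3.40 without that of gluteus, 3.61 without that of intercostal muscle and 3.71 without that of the scapula muscle, in place of 4.94, each over 3 values in place of 4.

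**Figure D4:**
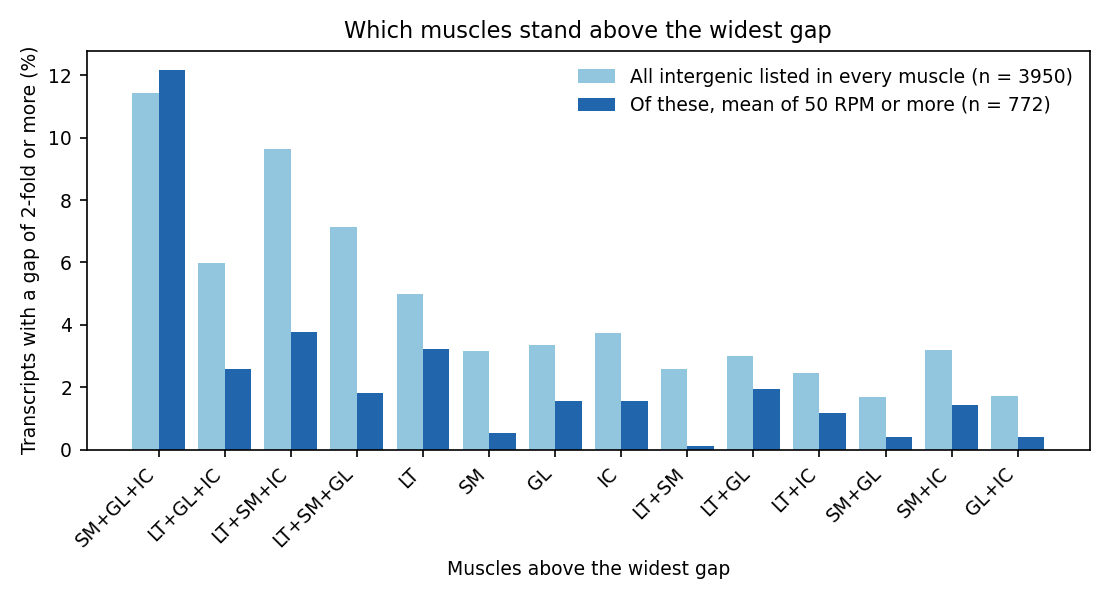
Share of intergenic transcripts listed in every muscle whose widest gap between muscles is 2-fold or more, by the muscles that lie above the gap. LT is longissimus thoracis, SM the scapula muscle, GL gluteus and IC intercostal muscle. In the deeper set the bar for SM+GL+IC, with longissimus thoracis below, reaches 12.2%, and the next, LT+SM+IC, 3.76%.

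Pair by pair, the scapula and intercostal muscles were most alike, in this set and over all transcripts listed in every muscle. They lay 2-fold or more apart for 1705 transcripts (43.2%, background 41.0% of all transcripts listed in every muscle). The scapula muscle and gluteus were apart for 1942 (49.2%, background 47.9%), and gluteus and intercostal muscle for 1964 (49.7%, background 47.9%). Longissimus thoracis was apart from the scapula muscle for 2105 (53.3%, background 53.2%), from gluteus for 2099 (53.1%, background 52.6%) and from intercostal muscle for 2101 (53.2%, background 53.1%). Across the 772 transcripts of 50 RPM or more, Pearson's r of log2(FPKM + 1) was 0.70 between scapula and intercostal muscle, 0.49 between scapula muscle and gluteus and 0.49 between gluteus and intercostal muscle. Longissimus thoracis had 0.42 with gluteus, 0.34 with intercostal muscle and 0.30 with the scapula muscle. Spearman's rho gave the same order at the ends, 0.62 for scapula with intercostal muscle and 0.21 for longissimus thoracis with the scapula muscle. At all depths, Pearson's r of these 2 pairs was 0.45 and 0.25 in the intergenic set. Over all transcripts listed in every muscle it was 0.63 and 0.43, again the highest and the lowest of the 6 pairs. The ends of this order were thus not particular to the intergenic set. These correlations are across transcripts, which share libraries and are not independent replicates, and the 6 pairs share muscles.

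Locus numbers show which of these transcripts the assembly placed together. The 3950 transcripts fell on 3219 loci, and 1297 (32.8%) shared a locus with another of the set. With 1 transcript per locus, 1 muscle lay above a 2-fold gap in 15.3%, below it in 34.5%, and the muscles parted 2 against 2 in 14.7%. The locus with most, XLOC_146365, held 8. Its 2 longest, TCONS_00187444 and TCONS_00187446, of 2327 and 2171 nucleotides, stood at 94.5, 34.4, 21.3 and 30.3 FPKM and at 94.8, 68.9, 73.2 and 98.5 FPKM. The first was highest in longissimus thoracis by more than 2-fold and the second varied less. Of the other 6, TCONS_00187442, TCONS_00194603, TCONS_00190776 and TCONS_00190780 were also highest in longissimus thoracis, at 63.7, 74.3, 50.7 and 33.1 FPKM. XLOC_173656 held 6, which lay between 23.0 and 90.7 FPKM. Its longest, TCONS_00231487, stood at 73.7, 41.0, 55.4 and 50.1 FPKM. XLOC_003060 also held 6, whose order of muscles differed. TCONS_00001746, of 1783 nucleotides, stood at 70.5, 79.8, 34.9 and 73.6 FPKM, lowest in gluteus. TCONS_00013004, of 1433 nucleotides, stood at 21.3, 35.5, 43.5 and 55.0 FPKM, lowest in longissimus thoracis. Across the 490 pairs at 1 locus in which both had 20 RPM or more, Pearson's r of the log2 ratios against the other 3 muscles was 0.49, 0.44, 0.41 and 0.44. Transcripts of 1 locus may share reads, so these pairs are not independent.

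Some loci also carried a gene name, through an antisense transcript with the same locus number. This held for 291 of the 3950 transcripts (7.37%), at 210 loci. The share was 1.83% of the intergenic transcripts listed in 3 muscles, 1.01% of those in 2 and 0.263% of those in 1. The number of muscles is the rule itself and goes with read number. In longissimus thoracis the median was 38 reads for those listed in 4 muscles, and 19, 16 and 11 for those in 3, 2 and 1. Depth was not matched, so no conclusion is drawn from this order. Transcripts at these loci were longer, with a median of 1037 nucleotides against 694 for the other 3659, and varied less, with a median ratio of highest to lowest muscle of 3.32 against 5.19. Their median levels were 41.5, 36.3, 39.3 and 40.5 FPKM, against 26.1, 27.0, 25.4 and 26.7 FPKM. Over the whole set the median ratio fell from 7.54 in the shortest length group to 2.98 in the longest, and it was smaller with more reads. The transcripts at gene loci were not compared at matched length or depth, so their lower ratio cannot be told apart from these trends. What put transcripts into 1 locus is not given in the sources used, and whether such a transcript is part of the same RNA as its antisense neighbour was not tested. Of the 210 gene names, 196 were found in the RefSeq table of assembly ARS-UCD2.0. Across 178 pairs of an intergenic and an antisense transcript at 1 locus, both of 20 RPM or more, Pearson's r of the log2 ratios was 0.33, 0.40, 0.55 and 0.38.

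At several of these loci the intergenic and the antisense transcript had closely similar profiles. The clearest was that of SORT1, the sorting receptor sortilin, which takes part in the storage of glucose transporter vesicles. TCONS_00182774, of 3370 nucleotides, stood at 87.4 FPKM (80.7 to 94.5) in longissimus thoracis, 127 (117 to 137) in scapula muscle, 205 (190.4 to 219.7) in gluteus and, in intercostal muscle, 178 (166 to 191), and the antisense transcript at 86.9, 136, 208 and 178 FPKM. At PPP1R3A, the muscle subunit that targets protein phosphatase to glycogen, TCONS_00190088 stood at 179.8 FPKM (169.7 to 190.4) in longissimus thoracis, 71.6 (64.2 to 79.7) in scapula muscle, 117 (106 to 129) in gluteus and, in intercostal muscle, 80.4 (72.0 to 89.6) and TCONS_00186450 at 81.4, 31.1, 59.95 and 38.7 FPKM. The antisense transcript stood at 617, 289, 421 and 266 FPKM, and in all 3 longissimus thoracis was highest and gluteus second. At HEG1, a receptor of the endothelial junction, TCONS_00010353 stood at 32.4 FPKM (28.0 to 37.3) in longissimus thoracis, 115 (105 to 126) in scapula muscle, 69.6 (60.6 to 79.6) in gluteus and, in intercostal muscle, 104 (94.0 to 115) and the antisense transcript at 31.3, 134, 85.2 and 90.1 FPKM. Longissimus thoracis was lowest and the scapula muscle highest in both. The highest mean among the transcripts at gene loci belonged to TCONS_00013632, at the locus of CEP97, a protein of the centriole cap, with 317, 170.1, 268 and 167 FPKM against 192, 134, 206 and 114 FPKM for the antisense transcript. At CACUL1, a cell cycle protein related to the cullins, TCONS_00151865 stood at 203, 186, 190.0 and 279.9 FPKM and the antisense transcript at 173, 229, 226 and 405 FPKM, both highest in intercostal muscle. TCONS_00156477 of that locus was highest in longissimus thoracis and gluteus instead, at 146, 103, 146 and 97.3 FPKM. SORT1, PPP1R3A and HEG1 were chosen after their values were seen.

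**Figure D5:**
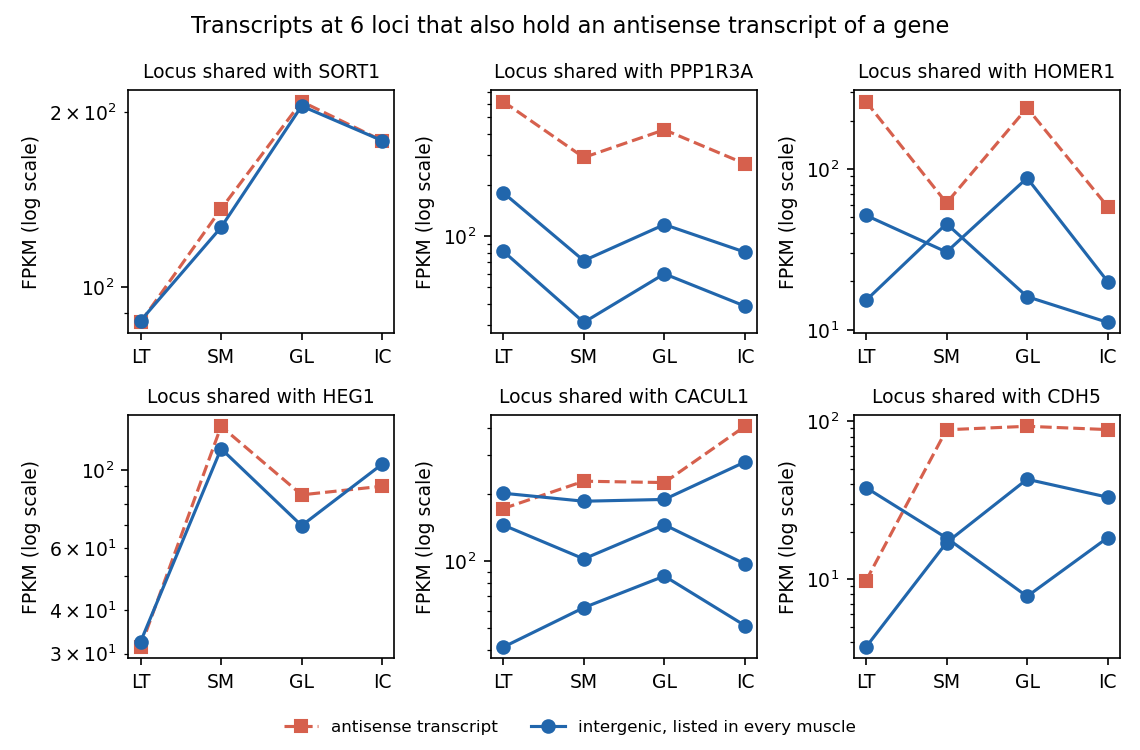
Levels in FPKM (log scale) at 6 loci that hold intergenic transcripts listed in every muscle (circles, 1 line per transcript) and an antisense transcript of a gene (squares). LT is longissimus thoracis, SM the scapula muscle, GL gluteus and IC intercostal muscle, and the loci were chosen after the values were seen. At SORT1 the lines nearly coincide, while at CDH5 the antisense transcript stands at 9.75 FPKM in longissimus thoracis and one of the intergenic transcripts at 38.0 FPKM.

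The gene loci were grouped by the known role of the gene, in lists made after the data had been seen, so their counts are descriptions. Over all transcripts listed in every muscle, the shares of higher and lower calls are 23.7% and 24.6% for longissimus thoracis. For scapula muscle they are 20.2% and 19.3%, for gluteus 17.4% and 25.2%, and for intercostal muscle 18.1% and 20.8%. The nearer background is the 291 transcripts at gene loci, from which the lists were drawn. Of these, 62 were higher and 61 lower in longissimus thoracis. The counts were 32 and 50 in scapula muscle, 44 and 57 in gluteus, and 42 and 46 in intercostal muscle. Transcripts at 9 loci of energy metabolism, 11 in all, summed to 1477, 986, 1031 and 1269 RPM. The highest mean of the 11, 347 RPM, was that of TCONS_00190088 at PPP1R3A, with 1186, 335, 400 and 328 reads. The high longissimus thoracis sum thus leans on 1 locus, which was itself chosen after its values were seen. By the 2-fold rule 3 higher and 0 lower of 11 were counted in longissimus thoracis, 0 higher and 1 lower in scapula muscle, 0 higher and 2 lower in gluteus and 2 higher and 0 lower in intercostal muscle. At TFAM, the transcription factor of mitochondrial DNA, TCONS_00165882 stood at 114, 76.6, 100.5 and 119.8 FPKM. At CYCS, cytochrome c, TCONS_00190417 was even, at 53.1, 65.4, 48.8 and 50.7 FPKM, and TCONS_00186916 was highest in longissimus thoracis, at 30.3, 7.69, 7.0 and 10.8 FPKM. AMPD3, an AMP deaminase, had TCONS_00065133 at 27.2, 29.8, 38.6 and 90.2 FPKM, highest in intercostal muscle. ACSL3, which activates long-chain fatty acids, had TCONS_00108684 at 168 FPKM (154 to 184) in longissimus thoracis, 199.6 (181 to 220.0) in scapula muscle, 108 (91.8 to 126) in gluteus and, in intercostal muscle, 185 (165 to 206), lowest in gluteus, as was its antisense transcript at 91.7, 102, 43.1 and 124 FPKM. At GPD1L, a glycerol phosphate dehydrogenase, TCONS_00127710 was highest in longissimus thoracis, at 137, 75.5, 68.0 and 115 FPKM, where the antisense transcript was lowest, at 27.3, 60.9, 60.7 and 62.1 FPKM.

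At 8 loci of the muscle fibre, cell adhesion and the neuromuscular junction lay 19 transcripts, which summed to 925, 823, 907 and 835 RPM. Which cells the integrin transcripts at ITGA1 and ITGA9 came from was not tested. By the 2-fold rule 4 higher and 5 lower of 19 were counted in longissimus thoracis, 1 higher and 5 lower in scapula muscle, 4 higher and 4 lower in gluteus and 2 higher and 3 lower in intercostal muscle. MUSK, the receptor kinase that organises the neuromuscular junction, had 4 of them. TCONS_00233647 stood at 78.8 FPKM (67.3 to 91.7) in longissimus thoracis, 99.8 (84.5 to 117) in scapula muscle, 14.5 (8.31 to 23.6) in gluteus and, in intercostal muscle, 50.4 (38.9 to 64.1), and TCONS_00236876 at 17.5, 77.9, 45.4 and 64.3 FPKM, with gluteus lowest in the first and longissimus thoracis in the second. At HOMER1, a scaffold of calcium signalling, TCONS_00024413 was highest in gluteus, at 51.5, 30.5, 87.9 and 19.96 FPKM, and the antisense transcript had 263, 61.5, 240.1 and 58.3 FPKM, so that longissimus thoracis and gluteus stood above the other 2 in both. TCONS_00018987 of the same locus was highest in the scapula muscle, at 15.2, 45.7, 16.1 and 11.1 FPKM. MICU3, a regulator of mitochondrial calcium uptake, had TCONS_00160544 at 96.8, 30.5, 62.4 and 20.8 FPKM and TCONS_00157151, the transcript of the highest longissimus thoracis ratio given above. Its antisense transcript was also highest there, at 155, 64.0, 116 and 91.7 FPKM. ITGA1, a collagen-binding integrin, had 5, of which TCONS_00115798 was the highest, at 89.1, 75.4, 97.2 and 112 FPKM. At EYA1, a coactivator of muscle development, TCONS_00057123 stood at 21.8, 4.09, 26.1 and 20.3 FPKM, lowest in the scapula muscle from 6 reads. At FSD2, a protein of striated muscle, TCONS_00119444 was lowest in gluteus, at 93.1, 111, 21.4 and 74.8 FPKM, where the antisense transcript was highest, at 26.5, 101, 129.6 and 90.3 FPKM.

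At 8 loci of the vessel wall and endothelium, 9 transcripts summed to 687, 716, 605 and 893 RPM. By the 2-fold rule 2 higher and 3 lower of 9 were counted in longissimus thoracis, 1 higher and 2 lower in scapula muscle, 1 higher and 5 lower in gluteus and 2 higher and 0 lower in intercostal muscle. The 5 lower calls in gluteus rested there on 1, 5, 8, 18 and 42 reads. The endothelial marker sum given above was 276, 445, 337 and 325 RPM. The antisense transcripts at these 8 loci summed to 1683, 2611, 2038 and 2666 RPM. Both sums were lowest in longissimus thoracis. The part of vessel cells in the gluteus calls was not tested. At NRP1, a coreceptor of vascular growth factor, TCONS_00047996 stood at 32.8 FPKM (20.03 to 50.7) in longissimus thoracis, 78.6 (54.5 to 109.9) in scapula muscle, 3.16 (0.0799 to 17.6) in gluteus and, in intercostal muscle, 71.6 (47.2 to 104), the gluteus value from 1 read. PDE5A, the phosphodiesterase of vascular cyclic GMP, had TCONS_00215457 at 44.9, 85.8, 19.0 and 69.1 FPKM. PRKG1, the kinase that cyclic GMP activates, had TCONS_00151044 at 180.3 FPKM (168 to 193) in longissimus thoracis, 93.3 (83.1 to 104) in scapula muscle, 139 (125 to 155) in gluteus and, in intercostal muscle, 159 (145 to 175), with the scapula muscle lowest, as in its antisense transcript at 275, 165, 221 and 219 FPKM. FZD4, a Wnt receptor of vessels, had TCONS_00167095 at 94.2, 46.5, 34.2 and 107 FPKM. The 2 transcripts at CDH5, the cadherin of endothelial junctions, went opposite ways. TCONS_00085525 was highest in longissimus thoracis, at 38.0, 18.2, 7.78 and 18.3 FPKM, and TCONS_00091334 lowest there, at 3.71, 17.03, 42.9 and 33.0 FPKM, as was the antisense transcript at 9.75, 88.3, 92.9 and 88.5 FPKM.

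At 5 loci of hormone and growth signalling lay 6 transcripts, which summed to 409.9, 379, 498 and 353 RPM. By the 2-fold rule 2 higher and 1 lower of 6 were counted in longissimus thoracis, 2 higher and 0 lower in scapula muscle, 1 higher and 0 lower in gluteus and 0 higher and 2 lower in intercostal muscle. At THRB, a thyroid hormone receptor, TCONS_00160910 stood at 55.5, 55.3, 124 and 88.6 FPKM and TCONS_00158353 at 54.8, 40.00, 79.4 and 68.5 FPKM, both highest in gluteus like the antisense transcript at 86.8, 72.4, 149.9 and 93.2 FPKM. PDE8B, a phosphodiesterase of cyclic AMP, had TCONS_00016462 at 147, 50.4, 48.8 and 28.4 FPKM, highest in longissimus thoracis, where the antisense transcript was lowest at 34.2, 68.6, 70.2 and 47.9 FPKM. RET, a receptor kinase of nerve growth signals, had TCONS_00163856 at 27.2, 60.03, 19.1 and 2.97 FPKM. FGF11, which is in this list by its family name only (fibroblast growth factor), had TCONS_00097161 at 3.15, 35.5, 9.52 and 9.45 FPKM. In both the scapula muscle was highest. Of the imprinted small nucleolar RNA genes, SNORD107 shared its locus with TCONS_00120442, at 69.8, 72.1, 79.5 and 20.7 FPKM, and SNORD116 with TCONS_00122771, at 12.8, 29.3, 0.851 and 17.2 FPKM, of which gluteus had 1 read.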

How the data were processed

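Noncoding transcripts were measured in 4 libraries, 1 per muscle. The authors deposited 1 FPKM value per transcript and library and listed only values above 0. Per the submitters' processing notes, the build was UMD3.1 and the tools included Cufflinks 2.1.1 and TopHat2 2.0.9. Not given in the sources used here are their settings, the strand setting and the annotation. Per library, a total was found at which every FPKM is a whole read number over a whole length (relative error under 1e-11 for all 115374 values), as tested on simulated data. The length is the smallest that serves all libraries listing the transcript, so reads and lengths are lower bounds. Transcripts of a locus may share a read. Calls used log2(FPKM + 1), at least 2-fold, with 1 FPKM or more in a library, and a transcript that is not listed entered the background as 0. Named transcripts are the 8 of highest mean, per muscle the 2 highest and 2 lowest ratios with 20 or more reads in that muscle or in each of the others, the 5 most even with 100 or more reads in every library, the 2 longest and 2 shortest of these, and the 3 loci with most transcripts. Some gene loci are not reported here. Members and lists were chosen with earlier results of these data known. Python 3.11.15, SciPy 1.17.1 and pandas 2.3.3 were used.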

Additional observations from a re-analysis of the deposited data

How the results depend on the processing

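No paired analysis was possible because each muscle has 1 library. Higher and lower counts, which were 900 and 1000 for longissimus thoracis, 812 and 794 for the scapula muscle, 710 and 1006 for gluteus and 767 and 817 for intercostal muscle, stayed within 1.5 times under a pseudocount of 0.1 or 5 FPKM, under median-of-ratios scaling and with 1 transcript per locus, the last chosen after seeing the data. That scaling lowers the log2 values by 0.13, 0.09, 0.02 and 0.11. Stricter rules made fewer calls by their construction. At 3-fold they were 507 and 612 for longissimus thoracis, 378 and 438 for the scapula muscle, 359 and 615 for gluteus and 360 and 491 for intercostal muscle. Beyond each of the other 3 muscles they were 300 and 512 for longissimus thoracis, 192 and 283 for the scapula muscle, 203 and 444 for gluteus and 211 and 340 for intercostal muscle. As shares of the set these are 7.59% and 13.0%, 4.86% and 7.16%, 5.14% and 11.2%, and 5.34% and 8.61%. They lie near the background over all transcripts listed in every muscle, 8.38% and 13.0%, 4.99% and 6.71%, 4.76% and 11.1%, and 4.99% and 7.85%. For the 3-fold counts and those under the filter on 10 reads no background was counted. With at least 10 reads in every library, 1956 transcripts remained, with 264 and 455 for longissimus thoracis, 222 and 250 for the scapula muscle, 253 and 245 for gluteus and 254 and 207 for intercostal muscle, and the higher share of the calls moved from 47.4% to 36.7% for longissimus thoracis, from 50.6% to 47.0% for the scapula muscle, from 41.4% to 50.8% for gluteus and from 48.4% to 55.1% for intercostal muscle. With a mean of 50 RPM or more, chosen after seeing the data, the counts were 93 and 168 for longissimus thoracis, 62 and 88 for the scapula muscle, 71 and 103 for gluteus and 79 and 60 for intercostal muscle. The filter on 10 reads admits lower levels in the deepest library, longissimus thoracis, than elsewhere. Under it the transcripts 2-fold apart numbered 836, 762 and 815 for longissimus thoracis with the scapula muscle, gluteus and intercostal muscle, 626 for the scapula muscle with gluteus, 495 for scapula with intercostal muscle and 608 for gluteus with intercostal muscle. A 2-fold gap remained in 770, of which 218 had longissimus thoracis below. The medians in gluteus and intercostal muscle became 40.8 and 41.8 FPKM. The median ratio of highest to lowest muscle was 2.93 with 10 reads and 2.05 with 100 reads in every library. It was 3.17 without longissimus thoracis, 3.71 without the scapula muscle, 3.40 without gluteus and 3.61 without intercostal muscle. Depth limits single ratios, since 1 library per muscle and few reads per transcript leave counting error as the only measured error.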
